A study of Rattus norvegicus with 14 samples.

Results

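Sod1 encodes the copper-zinc superoxide dismutase, and the data describe the methylation of its first exon in rat sperm. Its members were found by gene name: every region assigned to Sod1 in 5 tables of differentially methylated candidate regions was taken, which gave 5 of 8555 listed regions, 1 in each table. Regions entered the tables by the difference between group levels, and Sod1 was chosen by its levels in these same libraries. All 5 rows cover the same stretch of exon 1. Methylation was measured by reduced representation bisulfite sequencing (RRBS), which reads CpG methylation at CpG-rich restriction fragments. The 14 libraries were made from sperm of male Wistar rats of the parental generation.

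The labels divide these libraries into 4 groups. The control group (3 libraries) was left with the dam and given standard chow. The HFD group (4 libraries) was left with the dam and moved to a high-fat diet at postnatal day 60. The ELS group (4 libraries) underwent early-life stress, taken here as the maternal separation of 3 h per day for 16 days from postnatal day 1, and stayed on chow. The ELS-HFD group (3 libraries) had the separation and then the high-fat diet. Every group was tested in an elevated plus maze at about postnatal day 57. Litters, animals per library and age at sperm collection are not given in the sources used here, so the spread between libraries may be partly technical.

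Superoxide dismutases turn the superoxide radical into hydrogen peroxide, which catalase, peroxiredoxins and glutathione peroxidases then remove. SOD1 is the enzyme of the cytosol and the mitochondrial intermembrane space, while SOD2 works in the mitochondrial matrix and SOD3 outside the cell. Sperm have little cytoplasm and membranes rich in unsaturated lipids, and are known to be prone to oxidative damage. CpG-rich gene starts are mostly unmethylated in sperm. Partial methylation near a start can mean that the sperm of a sample differ at those CpGs, or that the 2 strands or neighbouring sites differ. Other cells in a sample can also give it.

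The Sod1 interval lay on chromosome 11 of the rat assembly Rnor_6.0, from 30363366 to at most 30363416, in exon 1 of 5 of transcript ENSRNOT00000002885 (gene ENSRNOG00000002115). By the deposited distances the annotated start is at 30363280, so the interval spans bases 86 to 136 after it. It ended at 30363416 with 13 CpG positions in 3 tables, at 30363411 with 11 positions in the table of ELS-HFD against control, and at 30363410 with 10 positions in the table of HFD against ELS-HFD. The last of these is at the smallest number of CpG positions that any listed region has. The position count is the table's own: among 1590 pairs of regions with identical coordinates in 2 tables, 100 pairs carry different counts.

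The sequence just before the gene start is shown to place the exon 1 interval in its CpG context; the interval itself lies after the start and its sequence was not used here. These are the 250 bases upstream of the RefSeq start of Sod1 in the build GRCr8, chr11:42942573-42942822, plus strand, 5′ to 3′, with CpG dinucleotides in capitals. The RefSeq table held 1 entry for the symbol Sod1, and whether its start is the same base as that of the Rnor_6.0 transcript was not checked.
Sod1 promoter: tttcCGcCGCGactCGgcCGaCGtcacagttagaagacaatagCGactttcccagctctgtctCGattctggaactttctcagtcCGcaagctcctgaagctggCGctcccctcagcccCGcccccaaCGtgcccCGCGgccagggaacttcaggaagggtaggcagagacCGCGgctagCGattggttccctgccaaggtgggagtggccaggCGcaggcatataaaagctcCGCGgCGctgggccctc
This stretch holds 21 CpGs, against a median of 5 over 33469 RefSeq windows of the same length, and 86.3% of those windows hold as many or fewer. A search of both strands found TATAAA once, with its first base at position -28 from the start. It found CCAAT once, on the minus strand from position -68, and GGGCGG once, on the minus strand from position -132. These 3 matches do not overlap. Of all windows, 12.9% hold TATAAA, 34.02% hold CCAAT and 30.5% hold GGGCGG on either strand. CCGG, the site cut by the restriction enzyme MspI of common RRBS protocols, was not found in this window, and 46.2% of windows hold it.

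Over the interval of 13 positions, every library of all 4 groups has a value, and methylation was highest in control and lowest in ELS-HFD. The 3 control libraries had 25.3, 27.05 and 29.7% methylation. The 4 ELS libraries had 15.1, 17.3, 18.4 and 19.6%. These groups are tight and do not overlap, and every separated library on chow lies below every control library. The 4 HFD libraries had 1.95, 15.1, 17.2 and 27.2%, and the 3 ELS-HFD libraries 2.70, 3.29 and 16.9%. In the HFD group 1 library is almost unmethylated and 1 lies within the control range, while in ELS-HFD 2 libraries are almost unmethylated and the other lies within the range of ELS. Across groups, the 14 libraries fall into a band of 3 between 1.95 and 3.29%, a band of 7 between 15.1 and 19.6% and a band of 4 between 25.3 and 29.7%. The lowest band holds only libraries from animals on the high-fat diet, and the highest band holds the 3 controls and 1 HFD library.

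**Figure D1:**
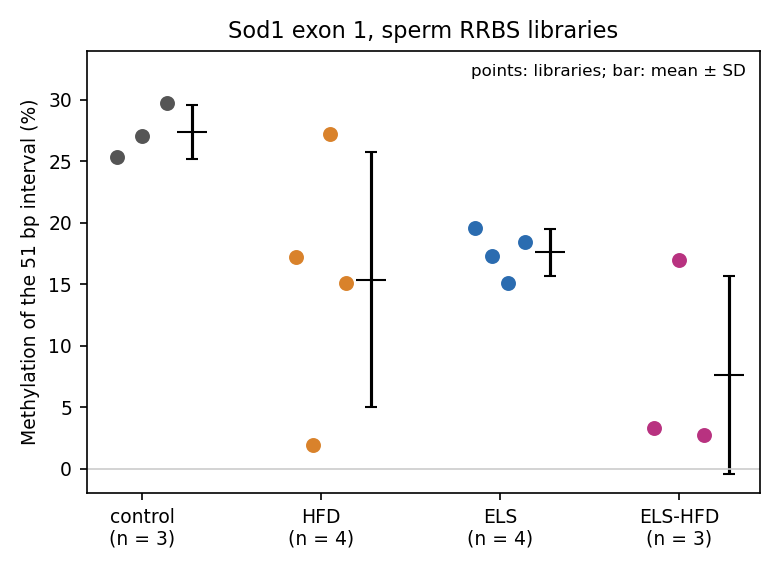
Methylation of the 51 bp exon 1 interval of Sod1 in percent (vertical axis) for each library (points) of the 4 groups (horizontal axis), with the mean and SD beside them. Control libraries sit between 25.3 and 29.7%, ELS libraries between 15.1 and 19.6%, and both groups on the high-fat diet spread widely, down to 1.95 and 2.70%.

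The group means over this interval were 27.4 ± 2.22% (SD, n = 3) in control, 17.6 ± 1.91% (n = 4) in ELS, 15.4 ± 10.4% (n = 4) in HFD and 7.64 ± 8.05% (n = 3) in ELS-HFD. In this order, ELS and HFD are neighbours that differ by less than the spread of HFD, and HFD and ELS-HFD overlap. Sod1 was listed for these differences, so the contrasts of the 5 tables are described here without a test.

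Separation on chow went with a Sod1 level 9.79 percentage points below control, 17.6 against 27.4%. The authors' deposited table gives this region a q-value of 2.02e-05, the 6th smallest of 1849 listed regions, of which 17 (0.919%) are under 0.05. The libraries of the groups did not overlap at Sod1, as at 25.7% of the regions in that table. Leaving out any 1 library kept the difference between -10.8 and -8.60 percentage points.

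After separation and high-fat diet together, Sod1 stood at 7.83 ± 8.67% against 29.3 ± 2.40% in control over the 11 positions of that table (n = 3 each), a difference of -21.5 percentage points. The ELS-HFD libraries had 2.44, 3.22 and 17.8% there and the control libraries 27.4, 28.5 and 32.0%. No ELS-HFD library reached the control range, and the control mean was 3.74 times the ELS-HFD mean. In the authors' deposited table the q-value is 0.00021, the 6th smallest of 1867, with 13 regions (0.696%) under 0.05. Libraries did not overlap in 38.7% of the regions of that table.

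High-fat diet alone went with 15.4 ± 10.4% against 27.4 ± 2.22% in control, a difference of -12.0 percentage points that is larger than that of ELS but rests on scattered libraries. The HFD library at 27.2% lies among the controls, so the groups overlap, and 22.6% of the 1583 listed regions do not overlap. The q-value in the authors' deposited table is 0.211, above the threshold that 10 regions (0.632%) pass. Without the HFD library at 1.95% the difference was -7.53 percentage points.

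Within the high-fat diet, the separated males had the lower mean: 7.52 ± 8.35% in ELS-HFD against 17.5 ± 12.2% in HFD over 10 positions. The HFD libraries had 1.82, 17.8, 18.8 and 31.7% and the ELS-HFD libraries 2.28, 3.13 and 17.2%. Both groups thus hold libraries under 5% and libraries above 15%, and they overlap, as do all but 23.9% of the 1653 listed regions. The q-value in the authors' deposited table is 1 and 7 regions (0.423%) are under 0.05. The difference of 10.002 percentage points became 15.2 when the HFD library at 1.82% was left out and 5.28 when that at 31.7% was.

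Within separated males, those on the high-fat diet had 7.64 ± 8.05% against 17.6 ± 1.91% on chow, 9.95 percentage points less in ELS-HFD. The ELS-HFD library at 16.9% lies within the ELS range of 15.1 to 19.6%, while the other 2 are below every ELS library. The q-value in the authors' deposited table is 0.106, and 11 of 1603 regions (0.686%) are under 0.05. Libraries did not overlap in 24.1% of those regions.

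Set side by side over the 13 positions, separation went with -9.79 percentage points on chow and -7.73 on high-fat diet, and the diet with -12.0 without separation and -9.95 after it. The change with both, -19.7 percentage points, was close to the sum of the single changes, -21.8. These values share groups with each other, and their difference was not tested. HFD against ELS is the only pair of groups with no table of its own. Its libraries are among those by which Sod1 was chosen, so it too is described without a test. The ELS mean was 2.22 percentage points above the HFD mean. Leaving out the HFD library at 1.95% turned the direction, with HFD then 2.26 percentage points above ELS, and leaving out the one at 27.2% gave -6.17 percentage points for HFD minus ELS.

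The spread between libraries differed between diets at Sod1: the SD was 2.22 and 1.91 percentage points in the chow groups and 10.4 and 8.05 in the groups on the high-fat diet. Among the 1583 regions listed for HFD against control, the median SD of the HFD libraries was 3.22, and 93.4% of regions had an SD at or below that of Sod1. The control SD stood near the middle, with 48.8% at or below it. For ELS-HFD, 84.7% of the 1603 regions listed against ELS had an SD at or below that of Sod1, and for ELS 26.7% did. The difference in spread was not tested. Over the listed regions, the libraries almost unmethylated at Sod1 did not have the lowest median of their group. Those regions were listed for group differences and do not stand for a whole library. The HFD library at 1.95% had a median of 10.7% over the 1583 regions, where the 4 HFD libraries ranged from 8.67 to 10.7%, and it was the lowest of its group in 19.2% of regions. The ELS-HFD library at 16.9% had the lowest median of its group, 12.02% over the 1603 regions against 14.2 and 14.8%, and was the highest of its group in 22.2% of them.

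The shorter intervals of 2 tables give the same libraries a second value, over a stretch that lacks the last bases of the 51 bp interval. The 3 control libraries had 27.4, 28.5 and 32.0% over the 46 bp interval and 25.3, 27.05 and 29.7% over 51 bp, in the same order of libraries. All 3 were thus lower over the longer stretch, by 1.44 to 2.27 percentage points. The 4 HFD libraries had 18.8, 1.82, 31.7 and 17.8% over the 45 bp interval and 17.2, 1.95, 27.2 and 15.1% over 51 bp. Of these, 3 of 4 were lower over the longer stretch, and the almost unmethylated library was not. The ELS-HFD libraries had 3.22, 17.8 and 2.44% over 46 bp and 3.29, 16.9 and 2.70% over 51 bp, so 1 of 3 was lower. ELS was listed over 51 bp alone. The difference of ELS-HFD from control was -21.5 percentage points over 46 bp and -19.7 over 51 bp.

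**Figure D2:**
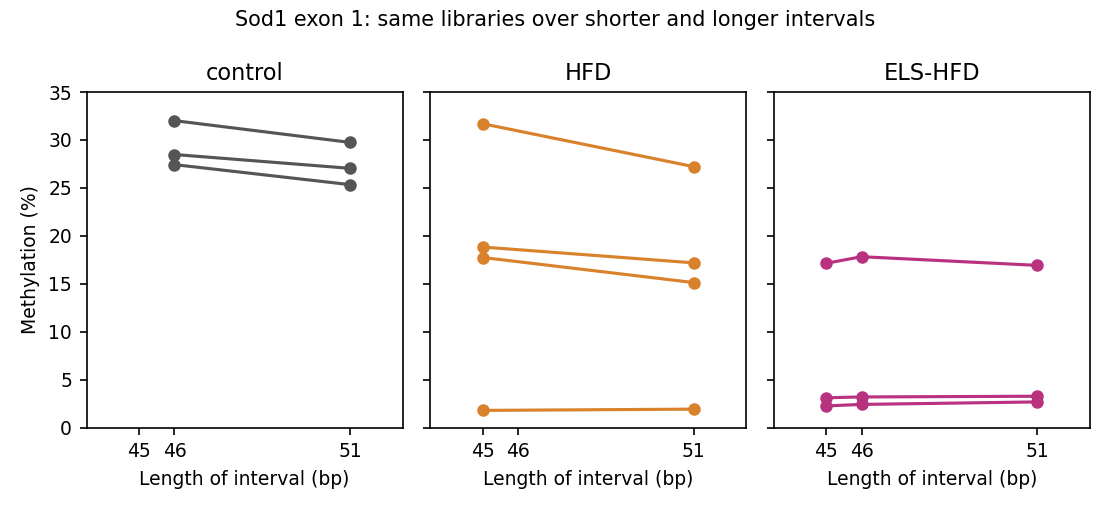
Methylation in percent (vertical axis) of the Sod1 interval against its length in bp (horizontal axis), with 1 line per library and 1 panel for each group listed over more than 1 length. The 3 control lines fall from the 46 bp to the 51 bp interval, as do 3 of the 4 HFD lines from 45 bp, while the libraries under 5% stay nearly flat.

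Sod1 differs from most first-exon regions of these tables in its starting level. Among the 113 first-exon regions listed for ELS-HFD against control, 81 had a control mean under 10%, 25 lay between 10 and 50% and 7 were above. The control mean of Sod1 in that table, 29.3%, belongs to the middle band. Its difference of -21.5 percentage points was the largest in size among these 113, where the median size was 3.35, and the 17th of all 1867 listed regions. The 81 regions under 10% in control could not fall by that much, so the starting level limits this comparison. Of regions that start higher, Gng2 had -17.3, Pheta1 -16.8 and Atp7b -16.3 percentage points. This Pheta1 region has a deposited q-value of 0.0028. It and Sod1 are the 2 of the 113 (1.77%) with a deposited q-value under 0.05. The Sod1 difference was also the largest of the 113 first-exon regions listed for HFD against control. In ELS against control it was the 10th of 104. The Sod1 interval is short and dense: 51 bp with 25.5 positions per 100 bp, against medians of 92 bp and 12.05 positions in the table of HFD against control. No listed region has fewer than 10 positions, so a short one is dense by that limit alone. These ranks describe a region chosen for its differences and are no test.

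**Figure D3:**
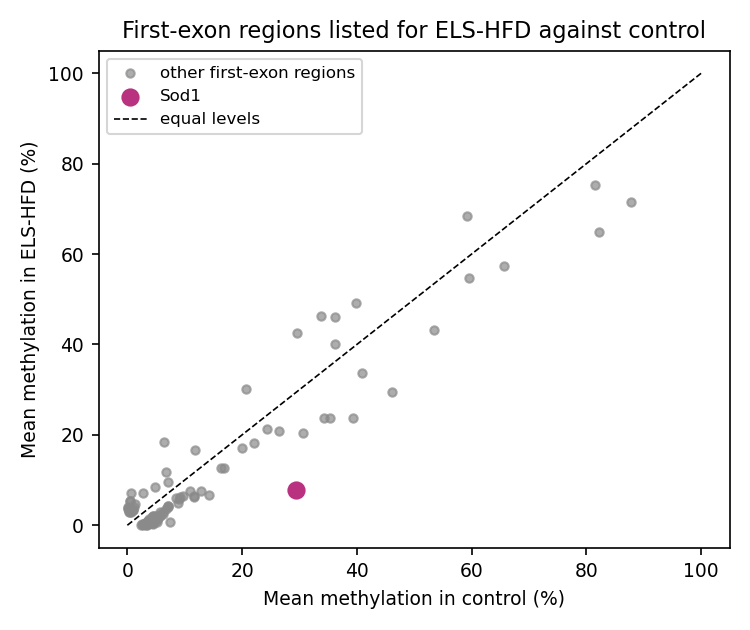
Mean methylation in ELS-HFD (vertical axis, percent) against control (horizontal axis, percent) of the 113 first-exon regions listed for that comparison, with Sod1 marked and a dashed line of equal levels. Sod1, at 7.83 and 29.3%, lies farthest below the line, and 81 of the regions have a control mean under 10%.

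No other region near Sod1 was called. Within 1 Mb of it the 5 tables list 12 further rows under 8 gene names, with differences of 2.65 to 6.62 percentage points in size and 0 deposited q-values below 0.05 (percentages of called regions as above). The closest, 64.0 kb further along chromosome 11, is in intron 1 of Scaf4, which encodes a protein of transcript termination. It had 2.38, 2.03, 1.80 and 6.85% in HFD against 0.286, 0.222 and 0.747% in ELS-HFD. These groups do not overlap, but the levels are under 10% throughout. Tiam1, which encodes an exchange factor for the GTPase Rac, has rows at 3 places. Its exon 2 region had 8.98 ± 3.74% in ELS against 5.87 ± 2.44% in control, and 8.80 ± 1.81% in ELS-HFD against 5.02 ± 4.61% in HFD. Both separated groups thus had the higher mean there, where Sod1 has the lower, and the libraries overlap in both comparisons. Its exon 1 and upstream regions, at 88.2 to 98.03%, also had higher means in ELS-HFD. The upstream region, listed for ELS against ELS-HFD, did not overlap between these groups, as at 24.1% of the regions of that comparison. It and the Scaf4 row are the 2 of the 12 without overlap. The promoter of Urb1, a ribosome biogenesis factor, had 3.72 ± 2.87% in ELS-HFD against 0.713 ± 0.498% in HFD, and 4.91 ± 3.94% against 1.13 ± 0.4698% in ELS. The remaining rows lie at Mrap, which encodes an accessory protein of the ACTH receptor, near Olig2, a transcription factor of oligodendrocytes, and near AC120732.1, AABR07033612.1 and a U6 small nuclear RNA copy. Their means ran from 4.29% at the U6 copy in HFD to 96.1% at Mrap in control.

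Of 71 loci listed in all 5 tables, Sod1 is 1, and the others were ranked by how closely their 14 library values follow it. The correlation describes libraries that share groups, and all of these loci were listed for group differences, so no p is given. Over the other 70 loci, Pearson's r with Sod1 had a median of 0.15 and a minimum of -0.84. The closest was a region in exon 14 of transcript ENSRNOT00000090858 on chromosome 13, nearest to LOC498231, with r = 0.73. Control stood at 79.4 ± 12.4% there, HFD at 74.5 ± 20.3%, ELS at 62.2 ± 6.33% and ELS-HFD at 45.6 ± 11.96%, so it follows the order of Sod1 except that HFD lies above ELS. Its HFD library in the column of the Sod1 low, at 48.8%, was also the lowest of that group. Intron 1 of Tm4sf20, a membrane protein gene on chromosome 9, followed with r = 0.70 and means of 69.7 ± 1.41, 60.7 ± 7.85, 59.1 ± 9.79 and 47.5 ± 3.08% in the same order of groups. The promoter region of Pheta1, which encodes an endosomal adaptor (r = 0.59), an exon region 4567 bp upstream of Catsper4, a subunit gene of the sperm calcium channel (r = 0.59), and an intergenic site near AABR07036626.1 (r = 0.55) complete the 5. The Pheta1 intervals of the 2 tables used overlap only at their edges. At all 5 the control mean was the highest and the ELS-HFD mean the lowest, an order found at 24 of the 70 loci. None of the 5 has a level near that of Sod1 in every group: mean absolute distances were 11.2 to 48.9 percentage points. The library order within the groups on the high-fat diet, with the same HFD library lowest and the same ELS-HFD library highest as at Sod1, recurred at 4 of the 70.

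**Figure D4:**
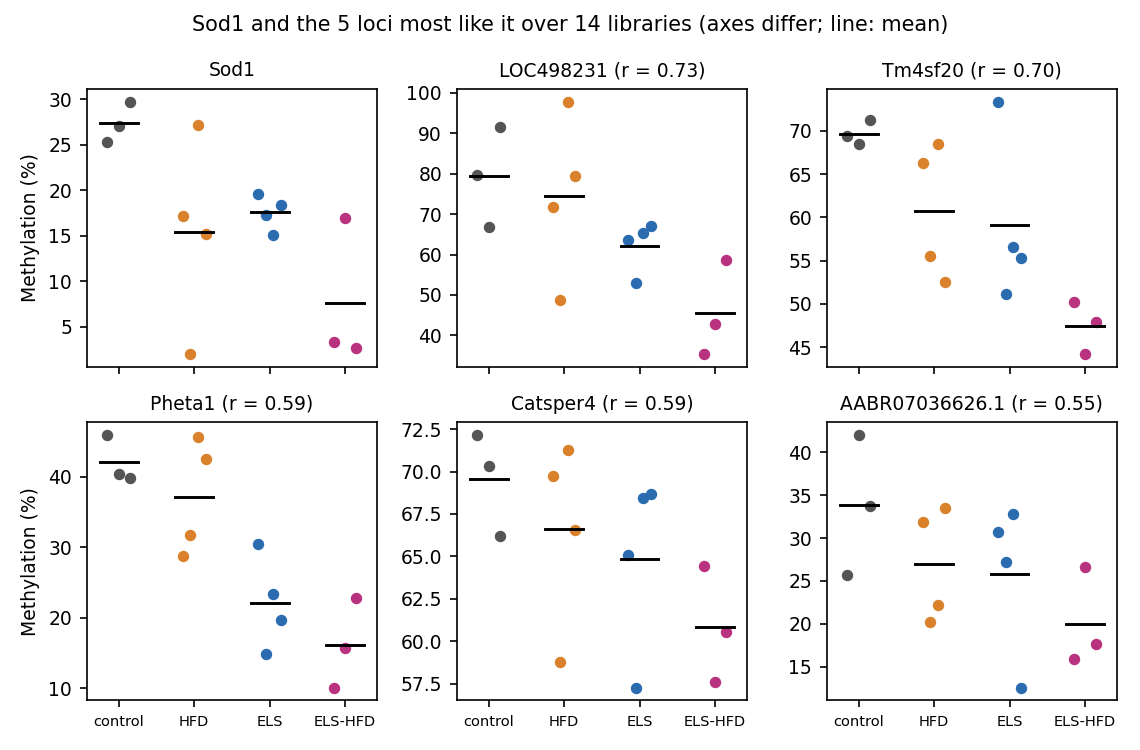
Methylation in percent (vertical axes, which differ between panels) by library (points) and group (horizontal axes; lines are means) at Sod1 and the 5 loci with the highest correlation to it over 14 libraries. In each panel the control mean is the highest and the ELS-HFD mean the lowest, and only Sod1 has libraries under 5%.

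The other antioxidant genes were read from a list of 77 genes of superoxide, peroxide, glutathione, thioredoxin and copper handling and of the Nrf2 pathway, of which 16, Sod1 included, have a listed region under their name. The other 15 have 30 listed regions, with differences of 2.34 to 17.9 percentage points in size. The authors' deposited table gives a q-value of 1 to each of the 30, so none is called, where 0.423 to 0.919% of all listed regions are called. Against control, members had 3 higher and 2 lower means in HFD, 3 higher and 6 lower in ELS, and 2 higher and 5 lower in ELS-HFD, Sod1 included. Of all listed regions, 43.7, 61.0 and 70.0% were lower in these groups. The median difference of the members was 4.56, -3.13 and -5.44 percentage points, beside 2.67, -2.89 and -3.14 for all listed regions. In both comparisons with ELS-HFD, most members had the lower mean in ELS-HFD, 7 of 7 in HFD against ELS-HFD and 5 of 7 in ELS against ELS-HFD, with medians of 4.35 and 3.26 beside 3.09 and 2.83 for all listed regions. Of all listed regions, only 26.2 and 38.1% were lower in HFD and in ELS, so most were lower in ELS-HFD as well.

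Of the superoxide dismutases, Sod3 is not among the listed genes, and Sod2 was listed once, at its promoter in ELS against control; it is named for its family and outside the naming rule. Its libraries had 1.68, 0.909, 1.399 and 11.4% in ELS and 1.33, 0.328 and 1.51% in control. A single ELS library carries that difference, and the others are as low as control. Atp7b, a copper-transporting ATPase, was listed 4 times in its own exon 1 with high and scattered levels. In ELS its libraries had 60.7, 61.5, 96.5 and 59.1%, and in control 97.5, 98.6 and 66.1%. In ELS-HFD against control they had 20.9, 97.5 and 96.1% against 97.8, 98.7 and 67.0%. Both ELS and control hold nearly fully methylated and less methylated libraries, so the groups overlap. In HFD, Atp7b had 78.9 ± 22.6%.

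Among genes of glutathione synthesis and use, an intergenic site 10186 bp from Gclc, the catalytic subunit gene of glutamate-cysteine ligase, had 51.2 ± 9.85% in HFD and 49.8 ± 10.4% in ELS-HFD against 37.3 ± 6.79% in control. Its direction is thus opposite to that of Sod1 in both groups on the high-fat diet, with overlapping libraries. A site 17773 bp from Gpx8, a glutathione peroxidase gene, had 24.8 ± 1.38% in ELS-HFD against 30.2 ± 1.87% in control and 31.6 ± 2.78% in ELS, without overlap in either comparison. Near Gpx4, the peroxidase of phospholipid hydroperoxides, 17.5 ± 2.64% in HFD stood against 12.9 ± 4.14% in control in an exon of another transcript. Among thioredoxin and methionine repair genes, Msra, a methionine sulfoxide reductase gene, had 15.3 ± 4.33% in ELS and 12.5 ± 7.65% in ELS-HFD against 21.5 ± 11.1% in control. The order of these 3 means is that of Sod1, but a single control library at 34.3% lies apart and the groups overlap. The promoter of Msrb3, of the same function, had 5.71 ± 8.31% in ELS-HFD against 0.556 ± 0.482% in ELS. A single ELS-HFD library at 15.3% carries that difference: without it ELS minus ELS-HFD goes from -5.15 to -0.359 percentage points. A site 48421 bp from Txnrd1, a thioredoxin reductase gene, had 10.5 ± 7.36% in ELS and 8.18 ± 6.24% in ELS-HFD against 3.54 ± 0.901% in control. The ELS-HFD difference there fell from 4.64 to 1.19 percentage points without 1 library at 15.1%.

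Of the Nrf2 pathway, exon 5 of Keap1, which encodes the repressor of Nrf2, had 31.3, 34.2, 34.4 and 34.3% in HFD, 28.3, 25.8 and 28.3% in control and 30.7, 30.1 and 26.9% in ELS-HFD. HFD lies above both other groups without overlap, a direction opposite to that of Sod1 against control. Mafk, which encodes a small Maf partner of Nrf2, had 91.2 ± 0.825% in ELS against 94.6 ± 1.25% in control in intron 1. An intergenic site assigned to Maf, but 536279 bp from its start, had 31.3 ± 3.76% in ELS against 25.8 ± 3.96% in ELS-HFD. Intron 1 of Hmox2, a heme oxygenase gene, had 1.08 ± 0.436% in ELS against 4.21 ± 3.51% in control. A single control library at 8.26% sets that mean, and without it the difference goes from -3.13 to -1.11 percentage points. Exon 17 of Xdh, whose product can form superoxide, had 7.30 ± 2.10% in HFD and 2.95 ± 0.786% in ELS-HFD, without overlap. Gene names are those of the nearest promoter, and 10 of the 35 regions of the list are intergenic. Leaving out 1 library, an alternative chosen after seeing the data, moved the difference by more than 1.5 times at 31 of the 42 rows of the other antioxidant genes and of the neighbours of Sod1, and turned its direction at 4 of them, which lie at Atp7b, Msra and Mafk. Sod1 also moved by more than 1.5 times in HFD against control, from -12.0 to -7.53 percentage points. In HFD against ELS-HFD it did so from 10.002 to 5.28.

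**Figure D5:**
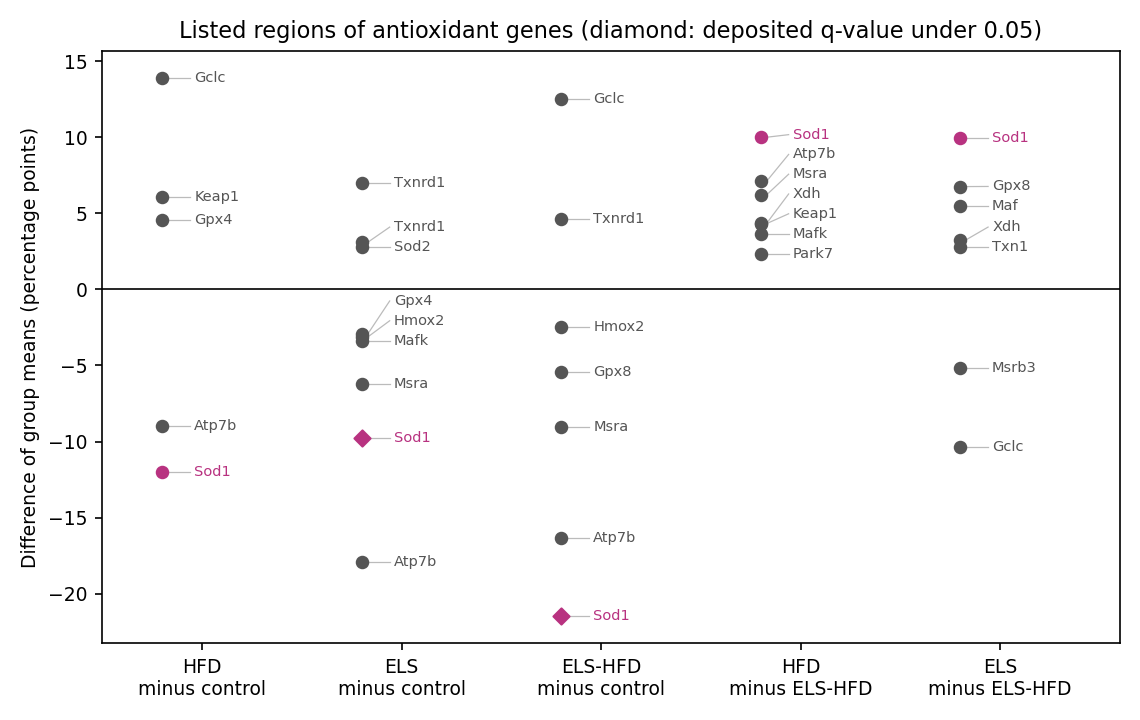
Difference of group means in percentage points (vertical axis) for each listed region of the antioxidant genes in the 5 comparisons (horizontal axis), with Sod1 coloured and a diamond for a deposited q-value under 0.05. Only Sod1 carries diamonds, at -9.79 and -21.5, and Gclc and Atp7b show differences of similar size with a q-value of 1.

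The sperm label was checked at markers. Of 17 germline genes whose promoters are methylated in somatic tissue, Dazl and Piwil1 were listed within 1000 bp of their start, with group means of 1.41 to 6.13%. Of 12 maternally imprinted genes, Gnas, Grb10, Igf2r and Zrsr1 were listed there, with means of 0.163 to 6.97%. Rows farther from the starts were not all as low. Zrsr1 had means of 7.09 to 14.4% in its exon at 1010 and 1178 bp, and 16.5 to 23.9% in an intron of another transcript. Gnas rows beyond 1000 bp had at most 6.72%. Intergenic sites assigned to Piwil1 had means of 2.07 to 95.04%. None of 7 genes of leukocytes and epithelium was listed, so those cells could not be checked by them. Of 4 paternally imprinted genes only Dlk1 was listed, in intron 1 at 8631 bp from its start, with means of 13.4 to 18.3%. That list was set as methylated in sperm, and the Dlk1 level is low against that. Whether this site or the farther Zrsr1 rows belong to an imprinted region was not tested. A part of other cells in the Sod1 values was not tested.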

How the data were processed

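RRBS libraries were prepared from sperm DNA with the Zymo-Seq RRBS kit, per the labels' protocols. Trim Galore, Bismark, Bowtie and the build Rnor_6.0 are named in the submitters' processing notes, without versions. Each table is metilene output, per the file headers; its settings, coverage filters and annotation tool are not given in the sources used here. The series' design text speaks of RNA from amygdala, while labels and tables are of sperm DNA and were followed. The deposited percent values are mean methylation per region and library, from 0 to 100, and depth is unknown, so no counting interval is given. The deposited p-values and q-values are the region caller's and treat CpG values as observations. The smallest listed region has 10 CpG positions and the smallest deposited difference in size is 2.5 percentage points. Differences computed here from the library values can be smaller, as 2.34 at Park7, and match the deposited ones at Sod1 to within 4.78e-05 percentage points.

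Table columns carry group codes (CC, CH, EC, EH), which the labels do not explain; CC was taken as control, CH as HFD, EC as ELS and EH as ELS-HFD from the letters and the number of columns. They have no replicate number. At regions with identical coordinates, 91.7% of 4530 values in the same column of 2 tables were equal within 1e-06. Here, means, SDs and differences were computed per table in Python 3.11.15 (numpy 2.4.6, pandas 2.3.3). The permutation test planned for HFD against ELS is not reported, since its libraries entered the choice of Sod1. The 14-library values take control and HFD from one table and ELS and ELS-HFD from another, over the same coordinates. Likeness was Pearson's r over loci overlapping by at least 1 bp in all 5 tables. Named genes were Sod1, the 12 other antioxidant genes with the largest difference, genes within 1 Mb and the 5 loci most like Sod1. Sod1 and the lists were chosen with earlier results of these data known. Sod1 was picked for its differences, so they carry no test.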

Additional observations from a re-analysis of the deposited data

Results flagged for a closer look

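At the regions named above, 52 groups of 4 libraries were checked with Dixon's test for a library far from the other 3, and 8 had one. Its chance rate of about 1 in 20 holds for independent, normally distributed values. These regions were listed for group differences, which a single far library can create, and several have low, skewed levels. Whether the 8 groups with a far library exceed chance therefore cannot be read from that rate. Sod1 itself was not among them, in HFD or in ELS. The libraries concerned differ between regions. In ELS, the values far from the others were 14.6% at Tiam1 exon 2 and 72.8% at Tm4sf20 intron 1 in the same column, and 96.5% at Atp7b exon 1 and 11.4% at the Sod2 promoter in 2 other columns. In HFD, the values far from the others were 31.3% at Keap1 exon 5 and 11.9% at Tiam1 exon 2 in the same column, and 14.98% at the promoter of Mafk and 6.85% at Scaf4 intron 1 in 2 other columns.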

How the results depend on the processing

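The Sod1 differences of the 5 tables kept their direction under every alternative run: means or medians, percent or logit scale, the deposited differences, other intervals of the same group, both groups over 13 positions (chosen after seeing the data) and leaving out each library. Leaving out 1 library gave -15.95 to -7.53 percentage points for HFD against control, -10.8 to -8.60 for ELS against control and -26.5 to -18.8 for ELS-HFD against control. It gave 5.28 to 15.2 for HFD against ELS-HFD, 7.48 to 14.6 for ELS against ELS-HFD and -6.17 to 2.26 for HFD against ELS, which has no table and changed sign. At a q-value under 0.01 the called regions fell from 17 to 11 for ELS against control, from 7 to 3 for HFD against ELS-HFD and from 11 to 5 for ELS against ELS-HFD. They also fell from 10 to 7 for HFD against control and from 13 to 9 for ELS-HFD against control. Within 100 kb of Sod1, 1 of the 12 neighbouring rows remained. Of the 5 loci most like Sod1, 2 were shared with a Spearman ranking. No paired analysis was possible because the table columns carry no replicate numbers. Unknown depth limits every value: an SD over 3 or 4 libraries is the only error available.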
